A study of Mus musculus with 4 samples.

Results

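The genes of oxidative phosphorylation, encoded by the mitochondrial and the nuclear genome, were followed across regions and libraries of mouse brain sections. Members were chosen by gene symbol, taking the mitochondrial genes that begin with mt-Nd, mt-Co, mt-Cytb or mt-Atp and the nuclear genes of the Nduf (a, b, c, s, v), Sdh (a to d), Uqcr, Cox (4 to 8) and Atp5 families with at least 50 unique molecular identifiers (UMIs, each a counted RNA molecule) over all spots. Of 32285 genes in the list, 107 symbols matched and 106 were members, 13 of them mitochondrially and 93 nuclear encoded. The lowest member was Cox7b2 with 287 UMIs, and Cox8c, the only matching symbol left out, was listed at 0 UMIs. The nuclear members were 37 subunits of complex I, 4 of complex II, 8 of complex III, 19 of complex IV and 17 of ATP synthase (complex V), and 8 assembly factors of complex I. The mitochondrial members were 7 subunits of complex I, 1 of complex III, 3 of complex IV and 2 of complex V.

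The mice were female C57BL/6 animals from the aged colony of the National Institute on Aging. They were 3 to 4 months (young) or 18 to 20 months old (aged) and received water as the vehicle or ethanol at 3 g/kg by gavage, 10 times over 18 days. Tissue was taken 18 h after the last dose, and 10 µm coronal sections of the left hemisphere, at bregma -2.0 to -2.2 and after removal of the meninges, were placed on Visium slides, on which each barcoded spot captures the poly(A) RNA of several cells. Age was crossed with gavage, and every combination holds 1 library (values of 4 libraries are given throughout in the order young vehicle and young ethanol, then aged vehicle and aged ethanol), so no difference between libraries has a replicate check, and within a spot fewer cells of a type and less RNA per cell cannot be told apart. All groups were gavaged, and no group without gavage was analysed here.

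The respiratory chain passes electrons from complexes I and II through III to IV, and complex V uses the proton gradient this builds to make ATP. The mitochondrial genome encodes the core proton-pumping subunits of complexes I, III, IV and V on polycistronic transcripts made inside the organelle, while every subunit of complex II and the remaining subunits come from nuclear genes. Neurons rely on this pathway for most of their ATP, and some nuclear subunits, above all in complex IV, exist as isoforms restricted to muscle, lung, testis or other tissues.

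After spots with under 500 UMIs were left out, 10942 of 11064 spots remained, with 45995677 to 58305713 UMIs in a library and a median of 15660 to 19077 UMIs per spot. Spots were clustered on genes that held no member, and regions carry the name of the marker genes fixed for them, or of their leading genes where the markers gave none. Although the samples are labelled hippocampal, the sections also held neocortex, thalamus, hypothalamus, striatum, white matter and choroid plexus, each with its defining markers among the leading genes. Although the meninges are stated to have been removed, a region of 61 to 91 spots per library had markers of meninges and vessels among its leading genes. The spots on these slides shared 3481 of 4187 different barcodes between libraries, because a barcode names a position on the slide. The sections differed in the regions they held: summed thalamic markers were 369, 772, 435 and 727 CPM (a gene's UMIs scaled to the UMI total of its library or region), those of the choroid plexus 4732, 1258, 5718 and 1735 CPM, and habenula spots were found in the ethanol libraries and in neither vehicle library. Lars2, Gm42418 and AY036118, whose reads can come from ribosomal RNA and which are called carry-over signs here, together took 0.296, 0.280, 0.212 and 0.564% of UMIs.

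The balance of the 2 genomes differed widely between regions. Mitochondrially encoded members gave 85.9% ± 1.24 (SD, n = 4 libraries) of all oxidative phosphorylation UMIs in a region led by Igfn1 and Reln and 85.2% ± 1.59 in a region led by C1ql2 and Ddn, which carried dentate and dendritic markers. The share was 81.4% ± 2.50 in meninges and vessels, 80.0% ± 3.30 in striatum, 78.8% ± 2.01 in thalamus, 77.4% ± 2.64 in hypothalamus and 76.4% ± 3.49 in white matter. It was 75.2% ± 4.10 in upper and 72.5% ± 3.63 in deep neocortex, 73.7% ± 2.40 in a region led by Homer3 and Cabp7, and 72.8% ± 2.35 in CA1. The lowest shares were 61.8% ± 5.66 in the dentate granule region, 60.5% ± 5.04 in the reticular thalamus and 60.1% ± 6.95 in the choroid plexus. The dentate, reticular and choroid regions lay below every other named region in the vehicle libraries, whereas from white matter to layer 6b neighbouring regions in this order differed by less than their spread over libraries.

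**Figure D1:**
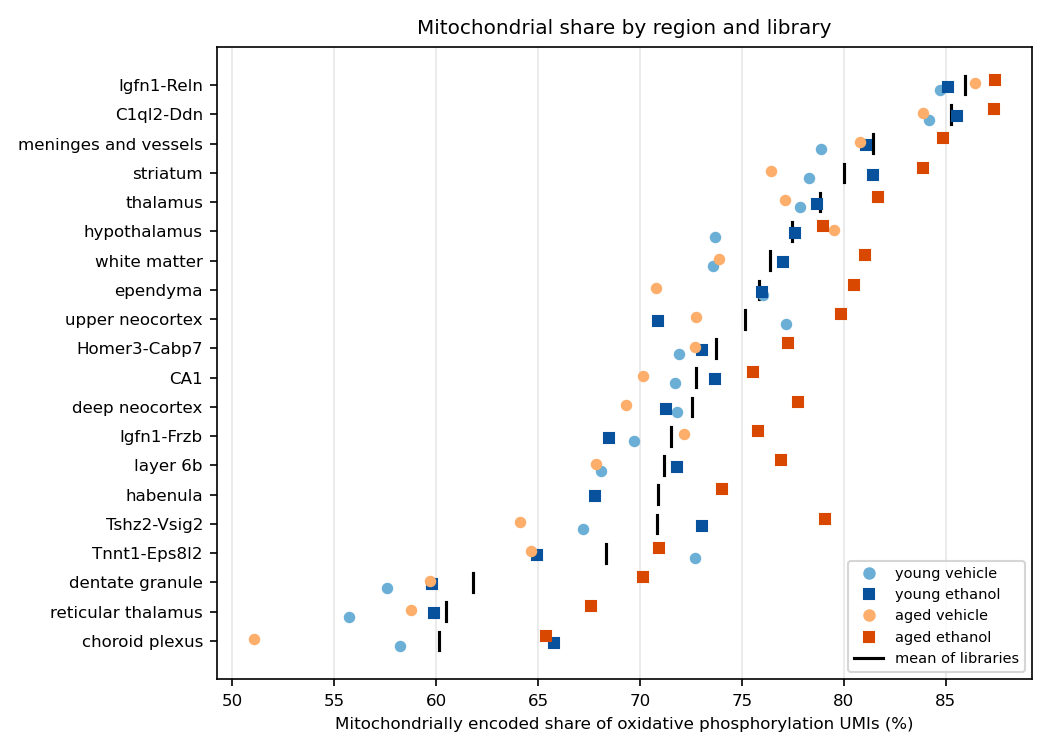
The x axis gives the share of oxidative phosphorylation UMIs, in percent, that came from mitochondrially encoded genes, with 1 point per library and a bar at the mean of the libraries, for each named region on the y axis. The Igfn1-Reln and C1ql2-Ddn regions sit above 83% in every library, and the choroid plexus between 51.1 and 65.8%.

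Over clusters with at least 10 spots the share rose with the mitochondrial percent of all UMIs (Spearman's rho 0.86, 0.90, 0.85 and 0.79). It fell with the nuclear percent (rho -0.70, -0.72, -0.74 and -0.70), and both percents enter the share. Mitochondrially encoded members took 23.7% ± 1.07 (SD, n = 4) of all UMIs in the C1ql2-Ddn region and 7.74% ± 1.35 in the dentate granule region, which shares its marker C1ql2, whereas nuclear members took 4.09% ± 0.346 and 4.72% ± 0.394 there. Across the clusters with at least 10 spots the percent of UMIs from the 2 genomes did not rise together: Spearman's rho between them was -0.29, -0.39, -0.31 and -0.21 over 24, 25, 23 and 25 clusters, points that share a library and a total. The mitochondrial share moved with the signs of ribosomal RNA carry-over (rho 0.78, 0.78, 0.77 and 0.55) and with astrocyte markers (0.73, 0.76, 0.62 and 0.82). The part of carry-over, astrocytes or depth in the shares was not tested.

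To ask how members of each genome differ between the cell layers of the hippocampus, the dentate granule region was compared with CA1, with UMIs summed per region and library and library as a block (edgeR quasi-likelihood test, Benjamini-Hochberg adjusted over all genes tested, calls at an adjusted p under 0.05). All 13 mitochondrially encoded members were lower in the dentate granule region, with a median log2 difference of -1.23, and 62 of 88 nuclear members tested were lower and 2 higher, with a median of -0.27. Of all 9466 genes tested 20.9% were called lower and 18.2% higher, with a median of 0.00. Shares of all genes, here and in the other region comparisons, leave out the 1576 features used to cluster the spots. The regions were small, with 27 to 41 dentate and 73 to 93 CA1 spots per library. On library totals without the TMM scaling factor the same 13 mitochondrial members were lower, but nuclear members split into 11 higher and 28 lower, and all genes into 3157 higher and 1131 lower.

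The drop was uneven within the mitochondrial genome. mt-Atp8, a small ATP synthase subunit, had 84.0, 78.8, 82.7 and 208.7 CPM in the dentate granule region and 343, 524, 315 and 649 CPM in CA1. These groups did not overlap, and the log2 difference was -2.21 (SE 0.18, edgeR adjusted p = 0.00021). mt-Nd6, the complex I subunit encoded on the opposite strand from the other 12 members, had 10.2, 17.8, 7.95 and 23.8 CPM against 56.1, 63.6, 47.0 and 69.0 CPM, a difference of -2.08 (SE 0.17). mt-Nd4l, a complex I subunit, was lower by -1.60 (SE 0.08) on the log2 scale and mt-Nd5 by -1.42 (SE 0.07).

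The smallest mitochondrial difference was that of mt-Cytb, the complex III subunit, with 8808, 9299, 10052 and 11431 CPM in the dentate granule region and 14061, 13855, 13119 and 14314 CPM in CA1, a log2 difference of -0.69 (SE 0.06, edgeR adjusted p = 4.7e-14). mt-Co3 of complex IV and mt-Atp6 of complex V followed at -0.81 and -0.92, and mt-Nd4, mt-Co1, mt-Nd1, mt-Nd3, mt-Co2 and mt-Nd2 lay between -1.02 and -1.32. For every one of the 13 genes the aged ethanol library had the highest dentate value of the 4. Some neighbouring mitochondrial genes overlap. mt-Atp8 overlaps mt-Atp6 by 43 bases and mt-Nd4l overlaps mt-Nd4 by 7 bases, and each of these pairs lies on 1 shared mRNA. mt-Atp6 and mt-Co3 overlap by 1 base, and mt-Nd5 and mt-Nd6, which lie on opposite strands, by 14 bases. The counts of such neighbours depend on how reads were assigned.

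Among the nuclear members Cox8a, the ubiquitous isoform of a small complex IV subunit, was lowest in the dentate granule region, with 1807, 1756, 1792 and 1062 CPM against 2607, 2475, 2588 and 1789 CPM in CA1. The log2 difference was -0.78 (SE 0.05, edgeR adjusted p = 2.5e-17), and in both regions the aged ethanol library stood lowest. The complex I assembly factors Ndufaf7 and Ndufaf4 and the complex I subunit Ndufa12 followed at -0.66, -0.63 and -0.63. The only nuclear members called higher were Sdhd, a membrane anchor of complex II, at 0.30 (SE 0.11, edgeR adjusted p = 0.022), and Atp5g2, an isoform of the ATP synthase c subunit, at 0.28 (SE 0.06, adjusted p = 0.00032). Atp5g2 had 359, 417, 348 and 363 CPM in the dentate granule region and 258, 283, 254 and 268 CPM in CA1, with no overlap. Without the young ethanol or the aged ethanol library 1 member was called higher instead of 2.

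By complex, 28 of 37 nuclear complex I subunits, 6 of 8 of complex III, 9 of 14 of complex IV, 13 of 17 of complex V and 4 of 8 assembly factors were lower, with medians from -0.22 to -0.33. Of complex II, Sdhb (the iron-sulfur subunit) and Sdhc (the other anchor) were lower at -0.54 and -0.35, and Sdha, the flavoprotein, was at -0.17 (edgeR adjusted p = 0.054). Of the 5 transcripts taken as signs of ribosomal RNA carry-over or nuclear RNA, Gm42418, Lars2, AY036118 and Meg3 were also lower in the dentate granule region, at -3.24, -2.76, -1.79 and -0.94, Malat1 was at -1.28 (edgeR adjusted p = 0.061), and their part in the mitochondrial values was not tested. The log2 ratio of mitochondrial over nuclear member UMIs, which needs no scaling, was lower than in CA1 in 4 of 4 libraries, by -0.90, -0.91, -0.66 and -0.39 (exact sign-flip permutation test, two-sided p = 0.13, the smallest 4 libraries allow, and 0.25 after adjustment over 6 region pairs).

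The C1ql2-Ddn region lay at the other end of the range. It was set against the dentate granule region after its values were seen, so the values are a description. All 13 mitochondrial members were at least 25% higher there in each of the 4 libraries, with a median log2 difference of 1.83, led by mt-Atp8 (2.87, 3.21, 2.59 and 2.27) and with mt-Cytb last (1.09 to 1.45). No nuclear member was 25% higher in each library and 19 of 87 were lower by the same factor, with a median of -0.26. Among all 7948 genes compared 4.44% were higher and 34.7% lower by this criterion, with a median of -0.48. The Igfn1-Reln region, set against the Igfn1-Frzb region in the same way, had all 13 mitochondrial members higher (median 1.12) and 16 of 87 nuclear members lower, while 2.82% of 8509 genes were higher and 15.3% lower. The 4 carry-over and nuclear RNA signs compared had medians of 2.22 and 1.96 in these pairs. By the same criterion 3 of them were higher in both pairs, and 1 was lower in the first pair. The medians of the endothelial markers, 1.68 and 1.38, and the astrocyte markers, 1.55 and 1.53, were above 0 as well. So were those of the white matter markers, 1.27 and 0.76, and the microglial markers, 1.247 and 0.72. The medians of the neuronal markers were -0.55 and -0.46, and the part of these cell types and of carry-over in the difference was not tested.

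In the Homer3-Cabp7 region, which had 1 CA1 marker and none of the CA3 markers among its 10 leading genes, 12 of 13 mitochondrial members were higher than in CA1 (median log2 difference 0.17). Of 89 nuclear members 38 were higher, 7 lower and 44 not called (median 0.09), against 15.1% higher and 16.6% lower among 9527 genes (median -0.03; edgeR, adjusted p under 0.05). mt-Nd3 of complex I rose most, with 4197, 4097, 4093 and 5859 CPM against 3600, 3728, 3265 and 4661 CPM in CA1, a log2 difference of 0.30 (SE 0.04, edgeR adjusted p = 4.6e-14), and mt-Nd6, at 0.10, was the member that was not called. The ratio of the 2 genomes differed from CA1 by 0.07 ± 0.10 (SD, n = 4) on the log2 scale, with 3 libraries higher and 1 lower. Of both genomes together 50 members were higher, against 18 without the library block, 19 in a joint fit of all regions and 33 with DESeq2. Summed neuronal markers were 4644, 4795, 4760 and 4583 CPM in this region and 2463, 2431, 2729 and 2639 CPM in CA1, and white matter markers 3636, 4137, 3899 and 4852 against 1945, 2443, 1872 and 2006 CPM. Their part in the differences was not tested.

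By complex, 10 of 15 nuclear members of complex IV and 11 of 17 of complex V were higher and none was lower, while of the 8 complex I assembly factors none was higher and 2 were lower. Cox7a1, the heart and muscle isoform of a complex IV subunit, rose by 1.05 (SE 0.24, edgeR adjusted p = 0.00011) from 7.32, 9.16, 3.65 and 9.25 CPM in CA1 to 15.5, 13.2, 9.89 and 20.3 CPM. Ndufv3 and Ndufa9 of complex I and Sdhd of complex II followed at 0.37, 0.31 and 0.33. The lowest were the assembly factors Ndufaf2 (-0.37) and Ndufaf3 (-0.26), Sdhb (-0.20) and the complex I subunit Ndufa5 (-0.19). On library totals without TMM 24 nuclear members were higher and 11 lower, with 11 mitochondrial members higher, and without the young ethanol library 4 members of both genomes together were lower instead of 7.

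The forebrain regions were compared with neocortex, taken as the upper and deep layer clusters together. In thalamus the calls went in opposite directions for the 2 genomes: 6 of 13 mitochondrial members were higher in thalamus and none lower (median 0.23), whereas 52 of 93 nuclear members were lower and 9 higher (median -0.17). The background was 22.5% higher and 31% lower of 11812 genes, with a median of -0.06. The mitochondrial calls were mt-Nd6 (0.45), mt-Nd3 (0.33), mt-Nd4l (0.30), mt-Nd1 (0.29), mt-Nd4 (0.23) and mt-Co1 (0.23), while mt-Atp8, at 0.38, was not called. mt-Nd3 had 4116, 4411, 4201 and 5828 CPM in thalamus and 4073, 3110, 2985 and 4656 CPM in neocortex, so that each library was higher in thalamus although the ranges overlapped. The log2 ratio of the 2 genomes was higher in 4 of 4 libraries, by 0.23, 0.59, 0.45 and 0.27 (exact sign-flip permutation test, two-sided p = 0.13, the smallest possible).

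Complex I split between the genomes in thalamus, with 5 of 7 mitochondrial subunits higher and 18 of 37 nuclear subunits lower. The nuclear exception was Ndufa10, with 305, 334, 332 and 306 CPM in thalamus and 194, 205, 195 and 195 CPM in neocortex, a log2 difference of 0.69 (SE 0.06, edgeR adjusted p = 6.1e-10) with no overlap. Cox4i2, the lung isoform of complex IV subunit 4, and Cox6a2, the heart and muscle isoform of subunit 6a, were higher by 1.49 (SE 0.25) and 1.29 (SE 0.17). Cox6a2 had 94.5, 189.7, 65.0 and 138.7 CPM in thalamus and 52.3, 54.6, 33.7 and 55.4 CPM in neocortex. The lowest nuclear members were Atp5md, a small ATP synthase subunit (-0.65), and the assembly factors Ndufaf7, Ndufaf2 and Ndufaf8 (all -0.61). The carry-over sign Lars2 was also higher in thalamus, at 1.78. Summed white matter markers were 7888 to 11624.5 CPM in thalamus, 1719 to 2112 CPM in upper and 3827 to 4314 CPM in deep neocortex. Those of neurons were 3450 to 3821 CPM in thalamus, 4509 to 5370 CPM in upper and 4598 to 5340 CPM in deep neocortex. The part of carry-over and of these cell types in the values of either genome was not tested.

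In white matter 72 of 92 nuclear members were lower than in neocortex and 6 higher (median -0.42). Of the 13 mitochondrial members 6 were lower, a share near that of all genes, and 1 was higher (median -0.23), against 41.6% lower and 28.2% higher of 11549 genes (median -0.15). All 8 nuclear members of complex III and 16 of 17 of complex V were lower. Atp5md had 840, 714, 871 and 677 CPM in white matter and 1628, 1869, 1932 and 1622 CPM in neocortex, a log2 difference of -1.12 (SE 0.07, edgeR adjusted p = 3.6e-13). Cox6a2 (-1.39) and the assembly factors Ndufaf6 (-1.09) and Ndufaf5 (-0.96) were the other lowest members. Among the mitochondrial members mt-Nd1 was lowest, at -0.32, and mt-Nd6 was higher, at 0.26 (SE 0.11, adjusted p = 0.039), in 3 of 4 libraries. On library totals without TMM 10 mitochondrial and 77 nuclear members were lower, and no mitochondrial member, mt-Nd6 included, was called higher. The ratio of the genomes differed by 0.19 ± 0.23 (SD, n = 4), higher in 3 libraries and lower in the young vehicle library. It was 0.29 without the young vehicle and 0.10 without the young ethanol library.

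The nuclear members higher in white matter were isoforms or close relatives of other subunits, with the exception of Sdhc, at 0.29. Cox6b2, the testis isoform of subunit 6b, had 24.02, 11.55, 17.97 and 21.40 CPM against 4.77, 3.56, 3.68 and 5.14 CPM in neocortex (log2 2.16, SE 0.17), Cox8b 13.27, 7.59, 4.99 and 12.98 CPM against 1.70, 2.73, 1.65 and 5.37 CPM (log2 1.87, SE 0.26). Ndufa4l2, Cox7a1 and Atp5g2 were higher by 1.08, 0.61 and 0.36.

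In hypothalamus 55 of 91 nuclear members were lower than in neocortex and 3 higher (median -0.26), and of the mitochondrial members only mt-Nd6 was called, at 0.51 (median of the 13 -0.05), against 28.9% lower and 19.2% higher of 11646 genes (median -0.09). Complex IV was the lowest of the complexes, with a median of -0.46 over 17 nuclear members, 12 of them lower. Cox6a2 had 9.21, 7.37, 15.8 and 9.20 CPM in hypothalamus, below each neocortical value (log2 -2.42, SE 0.21, edgeR adjusted p = 9.9e-08). Its ubiquitous partner Cox6a1 had 742, 891, 728 and 759 CPM against 1494, 1328, 1368 and 1277 CPM (log2 -0.92, SE 0.10). Cox8a and Cox6c, both of complex IV, fell by 0.84 and 0.71, and Cox6b2 (1.18), Sdhc (0.26) and Sdha (0.23) were the members called higher. The young vehicle library held 19 hypothalamic spots and the others 97 to 210. Summed neuronal markers were 1440 to 2140 CPM in hypothalamus, 4509 to 5370 CPM in upper and 4598 to 5340 CPM in deep neocortex. Their part in the differences was not tested. On library totals without TMM 32 instead of 55 nuclear members were lower and all genes split into 2645 higher and 2669 lower, and without the young ethanol or the aged ethanol library 2 members were higher instead of 4.

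**Figure D2:**
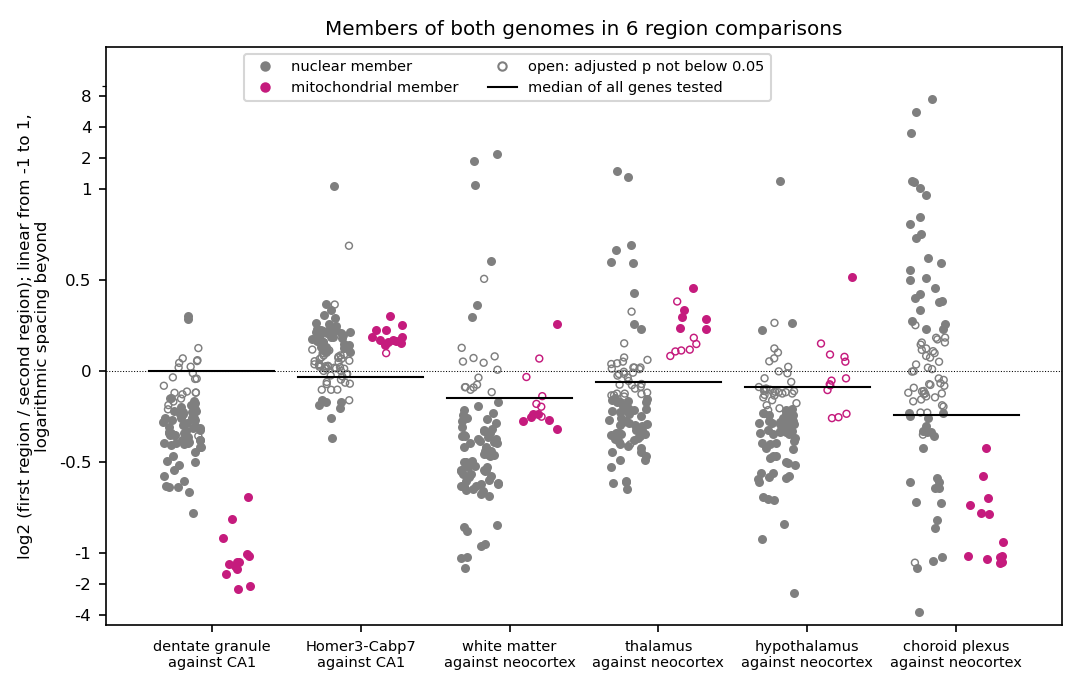
Each point is 1 member in 1 of 6 region comparisons, the y axis gives its log2 difference between the regions on a scale that is linear from -1 to 1 and logarithmically spaced beyond, filled points passed the test, and a bar marks the median of all genes tested. All 13 mitochondrial members lie below 0 in the dentate granule region and the choroid plexus, and 3 nuclear isoforms stand at 3.47 to 7.48 in the choroid plexus.

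The choroid plexus, the epithelium that secretes cerebrospinal fluid, had less of the mitochondrial members than neocortex and more of 3 complex IV isoforms. All 13 mitochondrial members were lower (median -0.94), and nuclear members split into 26 higher and 23 lower of 91 (median -0.04), against 25.2% higher and 36.7% lower of 11636 genes (median -0.24; edgeR, adjusted p under 0.05). mt-Nd6, mt-Atp8 and mt-Nd5 were lowest, at -1.25, -1.22 and -1.14, and mt-Nd3 was nearest to neocortex, at -0.42. The log2 ratio of the genomes was lower in 4 of 4 libraries, by -1.10, -0.35, -1.24 and -0.97 (exact sign-flip permutation test, two-sided p = 0.13, the smallest possible), over 22, 12, 24 and 11 choroid plexus spots. On library totals without TMM all 13 mitochondrial members were lower, and nuclear members split into 22 higher and 31 lower.

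Cox8b, the heart and muscle isoform of subunit 8, had 267.6, 563.8, 302.6 and 822.3 CPM in the choroid plexus and 1.70, 2.73, 1.65 and 5.37 CPM in neocortex, a log2 difference of 7.48 (SE 0.15, edgeR adjusted p = 9.5e-34). Both ethanol libraries stood above both vehicle libraries for Cox8b in the choroid plexus, which with 1 library per group was not tested. Cox6b2 had 232.4, 115.3, 213.0 and 216.1 CPM against 4.77, 3.56, 3.68 and 5.14 CPM (log2 5.57, SE 0.16), and Cox7a1 116.2, 107.6, 146.5 and 89.6 CPM against 11.3, 11.9, 10.0 and 11.5 CPM (log2 3.47, SE 0.17). For all 3 the lowest choroid plexus value lay above the highest neocortical one.

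None of the ubiquitous partners of the 3 isoforms was called higher. Cox8a had 2042 ± 307 CPM (SD, n = 4) in the choroid plexus and 2267 ± 474 CPM in neocortex (log2 -0.05, edgeR adjusted p = 0.65), and Cox6b1 670.1 ± 40.7 and 811.3 ± 55.1 CPM (log2 -0.19, adjusted p = 0.076). Cox7a2 was lower, with 973.1 ± 111 against 1226 ± 61.0 CPM (log2 -0.25, adjusted p = 0.028). Cox6a2 went the other way, with 1.17, 7.69, 4.07 and 2.64 CPM in the choroid plexus against 49.0 ± 10.3 CPM in neocortex (log2 -3.69, SE 0.34, edgeR adjusted p = 2.1e-12), on 8 UMIs in all 4 libraries. Sdhc was the next highest nuclear member, with 189.0, 181.9, 157.4 and 216.1 CPM against 89.0, 82.7, 79.3 and 92.6 CPM (log2 1.20, SE 0.12). Within complex II Sdhd was higher (0.50), Sdhb lower (-0.61) and Sdha at -0.16 (adjusted p = 0.22). Atp5g1, an isoform of the c subunit, had its highest mean over libraries of the named regions there, 993 ± 81.6 CPM, although in the young ethanol library the reticular thalamus, at 1069 CPM, lay above the choroid plexus, at 871 CPM. The complex I subunit Ndufb4 (-1.39) and the assembly factors Ndufaf5 (-1.18) and Ndufaf2 (-1.08) were the lowest after Cox6a2.

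Beyond the choroid plexus Cox8b had 11.9 ± 5.06 CPM in ependyma on 12 UMIs, 1.61 ± 0.92 CPM in CA1 on 13 UMIs, and 2 UMIs in the dentate granule region, both in the young vehicle library. Cox6b2 reached 44.5 ± 16.8 CPM in ependyma and 28.8 ± 9.39 CPM in meninges and vessels. Cox4i2 and Ndufa4l2, isoforms known from blood vessel walls, had 7.23 ± 1.71 and 18.1 ± 5.2 CPM in meninges and vessels and 1.66 ± 2.49 and 1.91 ± 1.28 CPM in the choroid plexus, on 3 and 5 UMIs there.

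**Figure D3:**
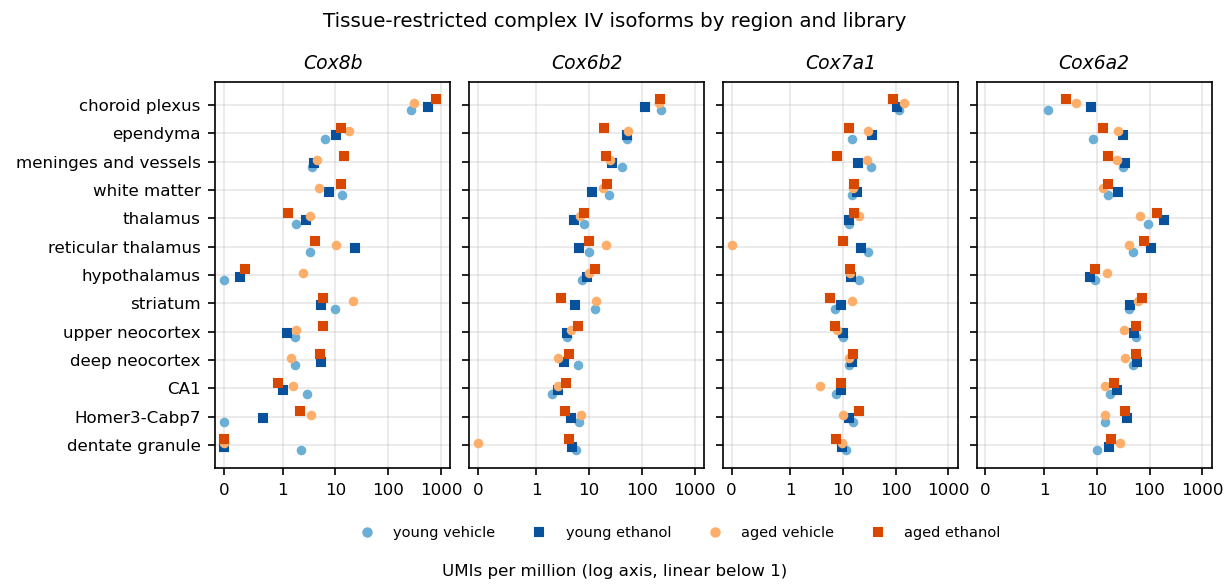
The x axes give the level of 4 tissue-restricted complex IV isoforms in CPM, on a log axis that is linear below 1, in 13 regions with 1 point per library. Cox8b, Cox6b2 and Cox7a1 are highest in the choroid plexus in every library, where Cox6a2 is at 1.17 to 7.69 CPM and below its thalamic 65.0 to 189.7 CPM.

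The promoters of the 3 isoforms and of their ubiquitous partners are shown because the members of each pair went apart in the choroid plexus. The windows hold 250 bases before and 50 after a start listed in RefSeq (build GRCm38.p6). The start used for Cox7a2 lies inside the gene, which spans 79755241 to 79771422 on chromosome 9. Both strands were searched for the palindromic NRF1 consensus and for ETS (CCGGAAG), YY1 (AAGATGGC) and TATA box (TATAAAA) letters, with matches in capitals.
Cox8b, chr7:140900397-140900696, minus strand: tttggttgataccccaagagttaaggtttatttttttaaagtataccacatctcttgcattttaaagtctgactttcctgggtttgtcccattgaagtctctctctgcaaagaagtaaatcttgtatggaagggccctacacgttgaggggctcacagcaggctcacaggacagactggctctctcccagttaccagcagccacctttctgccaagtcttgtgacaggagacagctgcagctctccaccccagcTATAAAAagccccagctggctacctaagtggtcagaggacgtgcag
Cox8a, chr19:7217567-7217866, minus strand: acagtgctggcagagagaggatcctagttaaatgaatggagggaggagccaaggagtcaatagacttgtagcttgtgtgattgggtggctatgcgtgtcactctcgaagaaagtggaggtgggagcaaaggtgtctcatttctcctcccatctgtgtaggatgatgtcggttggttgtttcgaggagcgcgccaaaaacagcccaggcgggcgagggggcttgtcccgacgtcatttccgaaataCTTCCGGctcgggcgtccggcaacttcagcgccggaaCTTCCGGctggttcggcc
Cox6b2, chr7:4753045-4753344, minus strand: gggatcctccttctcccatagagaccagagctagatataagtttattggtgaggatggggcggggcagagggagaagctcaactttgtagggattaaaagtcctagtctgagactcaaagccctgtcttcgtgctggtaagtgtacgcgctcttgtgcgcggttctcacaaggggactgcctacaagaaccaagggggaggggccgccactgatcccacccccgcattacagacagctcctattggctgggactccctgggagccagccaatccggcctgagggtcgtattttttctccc
Cox6b1, chr7:30626065-30626364, minus strand: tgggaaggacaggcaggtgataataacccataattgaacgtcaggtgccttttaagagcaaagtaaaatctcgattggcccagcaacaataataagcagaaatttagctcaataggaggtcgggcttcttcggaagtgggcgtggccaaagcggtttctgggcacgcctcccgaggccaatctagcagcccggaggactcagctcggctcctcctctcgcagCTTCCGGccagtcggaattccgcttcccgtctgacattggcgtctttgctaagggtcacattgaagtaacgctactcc
Cox7a1, chr7:30183921-30184220, plus strand: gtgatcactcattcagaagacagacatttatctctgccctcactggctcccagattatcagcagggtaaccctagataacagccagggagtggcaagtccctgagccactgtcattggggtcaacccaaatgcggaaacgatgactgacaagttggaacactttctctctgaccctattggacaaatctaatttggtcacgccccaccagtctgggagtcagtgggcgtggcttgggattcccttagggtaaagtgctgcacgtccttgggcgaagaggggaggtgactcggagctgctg
Cox7a2, chr9:79759804-79760103, minus strand: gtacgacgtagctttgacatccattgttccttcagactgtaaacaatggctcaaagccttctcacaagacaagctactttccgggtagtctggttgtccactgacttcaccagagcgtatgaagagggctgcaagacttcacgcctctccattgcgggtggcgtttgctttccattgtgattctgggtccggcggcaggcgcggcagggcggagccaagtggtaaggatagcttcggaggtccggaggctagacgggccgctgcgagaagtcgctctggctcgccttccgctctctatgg
The Cox8b window held the TATA letters and the Cox8a window 2 ETS matches, while the Cox6b1 window held 1 ETS match and that of Cox6b2 none of the 4. Neither window of the Cox7a1 and Cox7a2 pair held any of them.

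Of the 93 nuclear members 77 had a window. NRF1 letters stood in 7 of them (9.09%), those of Atp5g2, Atp5k, Cox6a1, Ndufa11, Ndufaf4, Ndufaf5 and Uqcrc1, against 1.07% of 27025 genes. ETS letters stood in 24.7% of member windows and 9.93% of all, YY1 letters in 14.3% and 3.19%, and TATA letters in 3.9% and 6.39%. ETS and YY1 letters can overlap, which they did in none of the member windows and in 1 gene overall. NRF1 and the ETS factor GABP are known regulators of nuclear respiratory genes, and a match is a description of the letters in the window.

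Between libraries, which the study set up to compare ethanol with vehicle at both ages, the aged ethanol library stood apart in the balance of the genomes. Mitochondrial members gave 74.0, 75.0, 73.8 and 79.2% of oxidative phosphorylation UMIs, with exact Clopper-Pearson 95% intervals, which cover counting error only, of 74.00 to 74.06, 74.99 to 75.04, 73.76 to 73.82 and 79.18 to 79.23%. They took 13.8, 14.3, 13.6 and 16.5% of all UMIs, and nuclear members 4.84, 4.76, 4.82 and 4.34%. All 13 mitochondrial members were highest in the aged ethanol library, and 76 of 93 nuclear members were lowest there. Of all 12070 genes with 200 UMIs or more in any library, 43.1% were lowest and 20.0% highest in that library. In the 18 clusters with at least 20 spots in each library, the mitochondrial share was highest in the aged ethanol library in all 18.

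In the aged pair 6 of 13 mitochondrial members were at least 25% higher under ethanol and none was lower by the same factor, which is the fold set for pairs of single libraries and applied to genes with 200 UMIs or more in either of them. The median log2 ratio was 0.32 for mitochondrial and -0.14 for nuclear members, of which 1 was higher and 3 lower of 91, beside -0.06 for 11667 genes, 5.67% of which were higher and 9.17% lower. mt-Atp8 had 326, 342, 275 and 579 CPM over the section, a ratio of 2.10 (exact 95% counting interval 2.06 to 2.15) between the aged libraries. mt-Nd6 (1.57), mt-Nd4l (1.47), mt-Nd3 (1.46), mt-Co2 (1.37) and mt-Nd5 (1.33) were the other members past the fold, mt-Nd1 lay just under it at 1.248 (1.243 to 1.253), and mt-Cytb differed least at 1.09 (1.08 to 1.09). With the mitochondrial genes left out of the totals 9 and with median-of-ratios scaling 10 mitochondrial members were past the fold, and with every library set to a common mix of clusters 8.

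mt-Atp8, mt-Nd6 and mt-Nd4l, the 3 members that differed most between the aged libraries, were also the lowest of the 13 in the dentate granule region against CA1. These 3 had the fewest UMIs of the 13 over all spots as well, with 77695, 8683 and 68171. The carry-over signs rose in the same pair, Gm42418 from 1915 to 5044 CPM, Lars2 from 197 to 569 CPM and AY036118 from 6.30 to 24.5 CPM, and their part in the mitochondrial values was not tested.

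**Figure D4:**
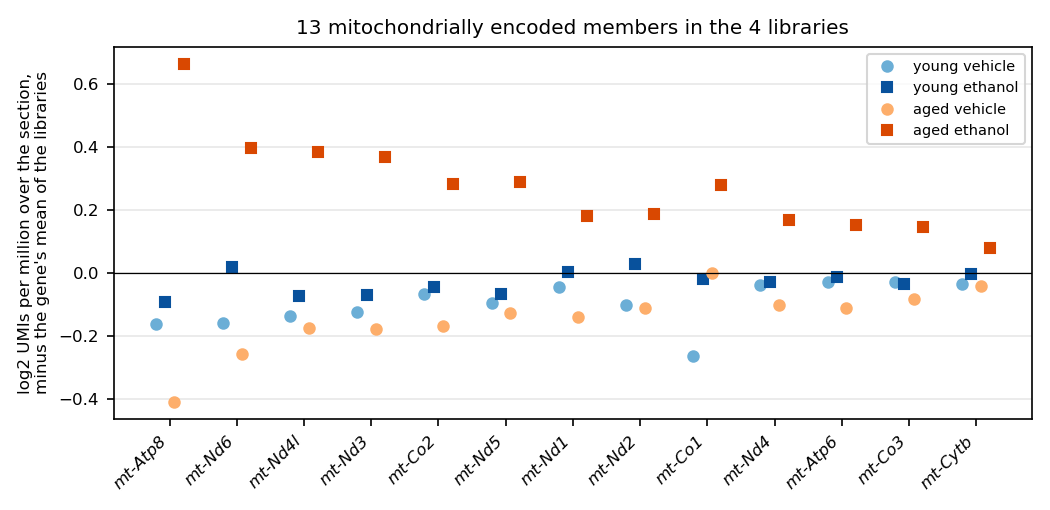
The y axis gives, for each of the 13 mitochondrially encoded members on the x axis, the log2 of its CPM over the section minus the mean of the 4 libraries. The aged ethanol library is highest for all 13 genes and the aged vehicle library lowest for 12, the exception being mt-Co1, which is lowest in the young vehicle library.

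Of the nuclear members in the aged pair, the assembly factor Ndufaf2 had 65.8 CPM under vehicle and 48.9 CPM under ethanol (ratio 0.743, 0.704 to 0.784), Ndufv3 of complex I 424 and 331 CPM (0.780) and Ndufa4, a complex IV subunit, 1511 and 1188 CPM (0.787), all past the fold, and Ndufa6 followed at 0.816. All 8 nuclear members of complex III, 33 of 37 of complex I, 15 of 17 of complex IV and 14 of 17 of complex V were below 0 on the log2 scale, and 3 of 4 of complex II above it, where 7308 of all 11667 genes were below 0. Cox6a2, with 27.0 and 47.5 CPM, was the member past the fold upward (1.76, 1.64 to 1.88), and Atp5g3 (1.23), Sdhc (1.20) and Cox8b (1.18) came next. Cox6a2 was higher in thalamus than in neocortex, summed thalamic markers were 435 and 727 CPM in these libraries, and their part in its difference was not tested.

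Within regions the aged pair kept this direction in 19 of 20 clusters with at least 20 spots in both libraries, with a median log2 difference of 0.46 in the ratio of the genomes and the hypothalamus as the exception at -0.05. In the dentate granule region 10 of 12 mitochondrial members were past the fold upward and 20 of 75 nuclear members downward under ethanol, against 14.6% higher and 11% lower of 1358 genes. In deep neocortex 12 of 13 mitochondrial members were higher and 8 of 83 nuclear members lower (4.41% and 12.4% of 3765 genes), in upper neocortex 11 of 12 and 8 of 83 (3.8% and 14.4% of 4155 genes), and in white matter 10 of 12 and 15 of 78 (9.94% and 17.5% of 2093 genes). In CA1 4 of 12 mitochondrial members were higher and 6 of 77 nuclear members lower (7.01% and 7.72% of 1970 genes). Outside the dentate granule region the share of nuclear members lower was near or below that of all genes in each of these regions. Cox8a in CA1 was 2588 CPM in the aged vehicle and 1789 CPM in the aged ethanol library, and in deep neocortex 2569 and 1570 CPM.

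In the young pair no mitochondrial member was past the fold over the section (median 0.05), and of 91 nuclear members 1 was higher and 1 lower (median -0.02), beside 5.36% higher and 4.07% lower of 12042 genes (median 0.00). Cox6a2 was higher under ethanol, with 38.0 and 58.7 CPM (ratio 1.54, 1.46 to 1.63), and Cox6b2 lower, with 12.5 and 6.72 CPM (0.539, 0.474 to 0.611). Summed thalamic markers were 369 CPM under vehicle and 772 CPM under ethanol and those of the choroid plexus 4732 and 1258 CPM. Cox6a2 was higher in thalamus, and Cox6b2 in the choroid plexus, than in neocortex. The part of these regions in the differences was not tested. Ndufa4l2, Ndufa10 and Ndufs3 had ratios of 1.14, 1.13 and 1.12, and Ndufaf8, Cox8b and Uqcr11 of 0.868, 0.896 and 0.904. The ratio of the genomes was higher under ethanol in 15 of 18 clusters, with a median log2 difference of 0.15, and upper neocortex stood against this at -0.47. There 10 of 13 mitochondrial members were past the fold downward under ethanol (2.54% of 5994 genes were lower and 10.4% higher), the share falling from 77.2 to 70.9%, while the carry-over signs were 0.50 and 0.10% of UMIs.

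Over the section, age under vehicle left the members close together. No mitochondrial member was past the fold between the aged and the young vehicle library, 12 of 13 were below 0 (median -0.05), and 1 of 91 nuclear members was lower (median -0.01), beside 2.11% higher and 1.69% lower of 11739 genes (median 0.02). mt-Co1, the core catalytic subunit of complex IV, was the mitochondrial exception, with 13273 CPM in the young and 15934 CPM in the aged vehicle library (1.20), and Cox6a2 the nuclear member past the fold (0.711, 0.662 to 0.763). Atp5g3 (0.885), Sdhb (0.895) and Cox6b2 (0.908) were the next lowest, and Cox8b (1.14), Atp5md (1.10), Atp5mpl (1.06) and Ndufa6 (1.06) the highest. The ratio of the genomes was higher with age in 9 of 22 clusters and lower in 13. In upper neocortex 10 of 13 mitochondrial members were past the fold downward with age (117 of 5458 genes lower, 470 higher). In the choroid plexus 7 of 10 were lower (49 of 477 genes lower, 25 higher). In hypothalamus, with 19 spots in the young vehicle library, 8 of 12 were higher (126 of 1310 genes higher, 160 lower). In each other region compared at most 1 was past the fold.

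Under ethanol the aged library was above the young one for all 13 mitochondrial members, with 6 past the fold (median 0.30), and 2 of 91 nuclear members were higher and 2 lower (median -0.14), beside 2.81% higher and 4.38% lower of 11977 genes (median -0.05). The 6 were mt-Atp8 (1.69), mt-Nd4l (1.37), mt-Nd3 (1.35), mt-Nd5 (1.28), mt-Co2 (1.254) and mt-Nd6, with 42.2 and 54.9 CPM. Ndufaf2 (0.790) and Ndufa4l2 (0.791) were lower, followed by Cox6a2 (0.809) and Ndufa4 (0.835), and Cox8b (1.497) and Cox6b2 (1.40) were higher, followed by Atp5g3 (1.09) and Ndufb1-ps (1.08). Summed markers of the choroid plexus, where Cox8b and Cox6b2 were highest, were 1258 CPM in the young and 1735 CPM in the aged ethanol library. Of the 5 carry-over and nuclear RNA signs 3 were past the fold upward (median 0.9998), and Lars2, Gm42418 and AY036118 together took 0.280 and 0.564% of UMIs. The part of either in these values was not tested. The ratio of the genomes was higher in the aged library in 22 of 22 clusters with at least 20 spots in both. This comparison and that of the aged pair share the aged ethanol library.

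**Figure D5:**
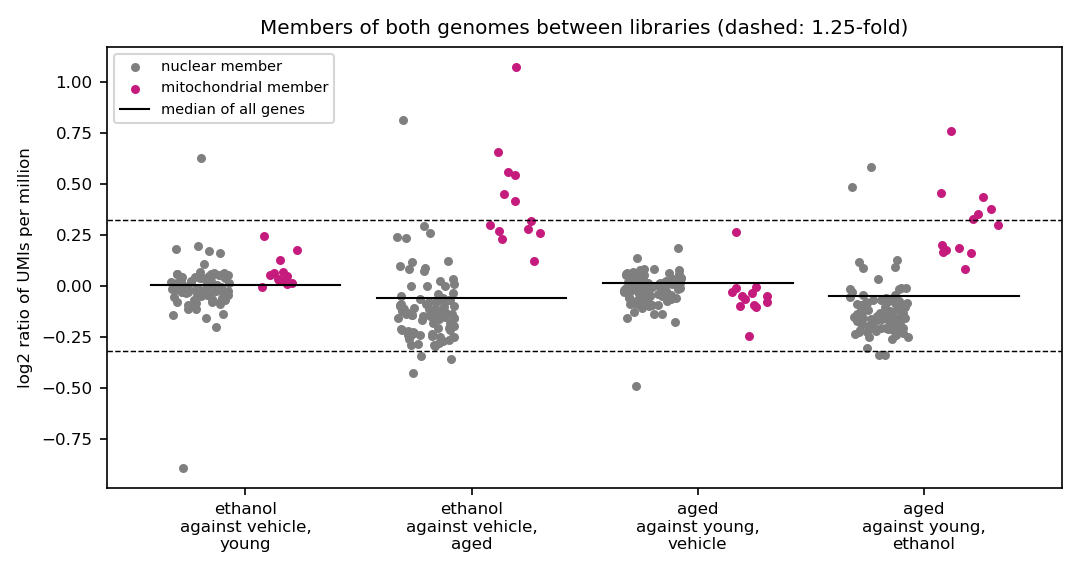
Points are members with 200 UMIs or more in either library of a pair, the y axis gives the log2 ratio of CPM over the section in 4 pairs of libraries, dashed lines mark the fold of 25% and bars the median of all genes. Mitochondrial members lie above most nuclear members in both pairs that hold the aged ethanol library.

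Genes that work with the chain, taken from lists, were compared over the same regions. The carrier list holds 8 genes, for cytochrome c, the ATP and phosphate carriers, the outer membrane channels Vdac1 to Vdac3 and Cyc1. Cyc1 is a subunit of complex III that the symbol rule does not match, so it is not counted among the members. Of the 8 genes 6 were lower in the dentate granule region than in CA1. All 8 were lower in white matter than in neocortex, and 5 in hypothalamus, where 1 was higher. The shares of all genes called lower were 20.9% in the dentate granule region, 41.6% in white matter and 28.9% in hypothalamus. Vdac1 and Cycs, the cytochrome c gene, were lowest in white matter at -0.98 and -0.84. Of the 15 citric acid cycle genes 14 were lower in white matter, led by Idh3a (-1.05) and Dlat (-0.95), and 8 were higher and 1 lower in the Homer3-Cabp7 region than in CA1, with Dlat at 0.69 and Idh3a at 0.44. In the Homer3-Cabp7 comparison 15.1% of all genes were higher and 16.6% lower.

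Of 16 glycolysis genes tested 13 were higher in the Homer3-Cabp7 region than in CA1 (median 0.46), with Eno1 at 1.03 (edgeR adjusted p = 1.4e-31), and 15 were lower in white matter (median -0.82), where Aldoc, the isoform of astrocytes, was higher at 0.49. Among all genes 15.1% were higher in the Homer3-Cabp7 region and 41.6% lower in white matter. In thalamus Ldha was lower by -1.50 and Ldhb higher by 0.36, and of 16 glycolysis genes 2 were higher and 6 lower, beside 22.5% and 31% of all genes. Of the 17 genes of mitochondrial transcription and biogenesis tested 2 were higher and 6 lower in white matter, 4 and 4 in thalamus, 2 and 4 in hypothalamus and 3 and 0 in the choroid plexus, and of 15 tested 1 and 1 in the dentate granule region and 1 and 0 in the Homer3-Cabp7 region. Each share lay below that of all genes in its comparison except the 4 of 17 higher in thalamus, beside 22.5%. Among them, taken as examples after their values were seen, Esrra was lower in hypothalamus (-1.20), white matter (-0.77) and the dentate granule region (-0.60) and higher in thalamus (0.59), and Ppargc1a was lower in white matter (-0.85) and hypothalamus (-0.66) and higher in thalamus (0.38) and the Homer3-Cabp7 region (0.54). Of the 30 assembly factors outside the members 19 were lower in white matter and none was higher, beside 41.6% and 28.2% of all genes. In the choroid plexus 10 were lower and 3 higher, where 36.7% of all genes were lower and 25.2% higher. Between the aged libraries 1 of 30 assembly factors was past the fold upward and 1 downward. No gene of the carrier list or the citric acid cycle was, and 1 of 16 glycolysis genes was lower. Among all genes 5.67% were past the fold upward and 9.17% downward in this pair.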

How the data were processed

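Each of the 4 libraries came as a gene by spot matrix of UMI counts deposited by the authors, made with Space Ranger and mm10 per the submitters' processing notes, which name version 2.0.0, whereas the file headers name 1.3.1. The annotation release is not given in the sources used here. The counts are not normalized, and nuclear pseudogenes and mitochondrial copies in the nuclear genome could share reads with members.

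Spots with at least 500 UMIs were clustered on 1576 features (1500 variable genes and the markers, without members) with 30 principal components, 15 neighbours and Leiden resolution 1 into 26 clusters (leidenalg 0.10.2, scikit-learn 1.9.0). The 1576 features were left out of the shares of all genes in every comparison between regions, but not between libraries. Neocortex is the upper and deep layer clusters together. Hippocampal neuropil was to be compared with CA1, but the cluster considered for it had dentate markers outnumbering those of neuropil, and the comparison was dropped. Spots can hold several cells, and no doublet caller was run.

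UMIs were summed per region and library and tested with edgeR 4.0.16 (R 4.3.3; quasi-likelihood, TMM, filterByExpr, library as a block), with DESeq2 1.42.0 as an alternative. The test was checked on simulated dentate granule and CA1 counts for 9466 genes, where it recovered 77% of 200 genes changed 2-fold and called 0.0432% of the unchanged ones. The simulation gave every gene a dispersion of 0.02. Beyond the changed genes its regions and libraries differed only in depth, so it does not give the rate of false calls in these data. Between libraries, each 1 sample, no test was made; CPM ratios carry exact conditional binomial 95% intervals (scipy 1.17.1, pandas 2.3.3), which cover counting error only, and a gene was past the fold when 25% higher, or lower by that factor, with 200 UMIs or more in either library. SDs are over the 4 libraries, which differ in age and gavage. The SE of a log2 difference between regions is its absolute value divided by the square root of the edgeR quasi-likelihood F statistic.

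Every mitochondrial member, the 4 highest and 4 lowest nuclear members called in a comparison or by ratio between libraries, the restricted isoforms with their partners and the 4 Sdh genes could be named, and others are named as examples. Members and lists were chosen with earlier results of these data known. Alternatives covered scaling, tool, block, fold, UMI minimum, spots and the omission of each library.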

Additional observations from a re-analysis of the deposited data

Results flagged for a closer look

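The log2 ratio of mitochondrial over nuclear member UMIs moved in opposite directions in pairs that answer the same contrast. With 1 library per group none of these differences was tested.

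With age, the ratio over the whole section moved by -0.018 under vehicle and by 0.34 under ethanol. In CA1 the same contrast gave -0.11 and 0.14, in upper neocortex -0.34 and 0.71, in deep neocortex -0.17 and 0.49, and in thalamus -0.060 and 0.27. With ethanol, upper neocortex moved by -0.47 in the young pair and 0.57 in the aged pair, and deep neocortex by -0.037 and 0.63. The carry-over signs in upper neocortex were 0.497, 0.0952, 0.111 and 0.404% of UMIs in the 4 libraries, and their part in the ratio was not tested.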

How the results depend on the processing

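Of 296 values under alternative settings 219 were kept and 77 moved. A count was kept when it lay within 1.5 times of the reported one. A library's mitochondrial share was kept when it lay inside the exact counting interval of the reported share. A ratio difference between regions was kept when its direction held, and none of these 48 values reversed. Counts and shares have no direction to reverse. All 6 ratio differences between regions kept their direction, though not always their size. As a median over spots that of dentate granule was -1.42 instead of -0.72 and that of Homer3-Cabp7 0.13 instead of 0.07. The latter was 0.11 without the young ethanol and 0.035 without the aged vehicle library, and hypothalamus 0.14 without the aged vehicle library instead of 0.27. Counts below are of members of both genomes, higher then lower, and the cause of a shift was not tested unless the setting itself demands more.

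For dentate granule against CA1 (2 and 75), DESeq2, no replicate block and core spots each gave 1 higher; library totals without TMM gave 11 and 41, a further minimum of 1.5-fold 0 and 19, and 2-fold in each library 0 and 3. For Homer3-Cabp7 against CA1 (50 and 7), DESeq2 gave 33 and 0, library totals 11 lower, a joint fit of all regions 19 and 2, no replicate block 18 and 0, 1.5-fold 1 and 0, and 2-fold 0 and 0. White matter (7 and 78) gave 12 higher with DESeq2, 4 and 21 at 1.5-fold and 2 and 1 at 2-fold. Thalamus (15 and 52) gave 34 lower with DESeq2, 6 and 4 at 1.5-fold and 0 and 0 at 2-fold. Hypothalamus (4 and 55) gave 33 lower with DESeq2, 32 lower on library totals, 1 and 9 at 1.5-fold and 0 and 1 at 2-fold. Choroid plexus (26 and 36) gave 13 higher at 1.5-fold and 3 and 3 at 2-fold.

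Leaving out each library in turn gave 1 to 2 higher and 71 to 78 lower for dentate granule, 34 to 50 and 4 to 6 for Homer3-Cabp7, 5 to 9 and 74 to 82 for white matter, 10 to 17 and 41 to 49 for thalamus, 2 to 5 and 41 to 55 for hypothalamus, and 21 to 30 and 29 to 37 for choroid plexus. No paired analysis was possible because each age and gavage group holds 1 library; the block above ties regions of 1 library.

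Between libraries, young ethanol against vehicle (1 and 1) gave 2 higher with at least 50 UMIs or a common mix of clusters, 0 lower with at least 1000 UMIs, and 0 and 0 at 2-fold. Aged ethanol against vehicle (7 and 3) gave 11 and 1 without mitochondrial genes in the totals, 12 and 1 with median-of-ratios scaling, 3 and 0 at 1.5-fold and 1 and 0 at 2-fold. Age under vehicle (1 lower) gave 0 at 1.5-fold and at 2-fold. Age under ethanol (8 and 2) gave 0 lower on both of those scalings, 1 lower with at least 1000 UMIs or a common mix, 1 and 0 at 1.5-fold and 0 and 0 at 2-fold. The mitochondrial share with a common mix of clusters was 74.7, 76.3, 74.1 and 80.3%, its median over spots 75.0, 76.3, 73.5 and 80.7%, and with at least 5000 UMIs per spot 74.0% in the young vehicle and 79.2% in the aged ethanol library.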
